A study of Rattus norvegicus with 12 samples.

Results

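Imprinted genes that act in growth and in the brain were followed in the tibia of pre-pubertal female rats fed soy protein isolate (SPI), treated with 17β-estradiol (E2), or both. The set held 10 genes, Nap1l5, Peg3, Ndn, Snrpn, Dlk1, Cdkn1c, Mest, Plagl1, Grb10 and Rasgrf1, and every Affymetrix probe set whose annotation gave one of these as its single symbol was taken. This gave 12 probe sets of 9 genes, of 31042 probe sets and 14217 singly named genes on the array, since no probe set carried Peg3 alone. The genes were chosen by their imprinted status with results known, Nap1l5 because it was much higher with SPI than with casein. The contrast of SPI with the casein diet (CAS) is therefore a description here and is not tested for any of these genes. The SPI group received the SPI diet, the E2 group the casein diet with E2 from a pump under the skin, the SPI+E2 group the SPI diet with E2, and the CAS group the casein diet alone. All were intact female Sprague-Dawley rats taken at postnatal day 34, on their diets from postnatal day 21 by the sample labels. Each group had 3 arrays, and each array held pooled RNA of 2 to 3 rats from right tibia after the marrow had been aspirated, so spread between arrays is spread between pools.

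An imprinted gene is expressed mainly from the copy of one parent, because marks laid down in the germ line, chiefly DNA methylation, differ between the copies. In the mouse, paternally expressed genes such as Mest, Dlk1 and Rasgrf1 tend to favour growth before and around weaning, and maternally expressed genes such as Cdkn1c and Grb10 tend to restrain it. Many imprinted genes, among them Ndn, Snrpn and Nap1l5, are expressed most strongly in neurons and neuroendocrine cells. An array measures the summed RNA of both copies, so parental origin was not measured.

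RefSeq promoter sequences (assembly GRCr8, from 250 bases before to 50 bases after the start) were found for 9 of the 10 genes. Those of the 4 genes with calls discussed first below are shown because Nap1l5 and Ndn moved together in these bones while Dlk1 and Mest moved differently. Capitals mark TGCCGC on either strand (GCGGCA on the other), the hexamer that ZFP57, a protein that maintains imprints in mouse and human, binds when it is methylated. Each line runs 5′ to 3′ on the strand of the gene.
Nap1l5, chr4:89354655-89354954, minus strand: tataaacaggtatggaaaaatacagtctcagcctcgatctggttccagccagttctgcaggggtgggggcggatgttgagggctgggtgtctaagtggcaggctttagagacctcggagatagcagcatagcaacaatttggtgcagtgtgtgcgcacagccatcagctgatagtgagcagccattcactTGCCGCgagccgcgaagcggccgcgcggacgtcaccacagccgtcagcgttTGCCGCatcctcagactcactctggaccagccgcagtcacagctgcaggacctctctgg
Ndn, chr1:125260809-125261108, plus strand: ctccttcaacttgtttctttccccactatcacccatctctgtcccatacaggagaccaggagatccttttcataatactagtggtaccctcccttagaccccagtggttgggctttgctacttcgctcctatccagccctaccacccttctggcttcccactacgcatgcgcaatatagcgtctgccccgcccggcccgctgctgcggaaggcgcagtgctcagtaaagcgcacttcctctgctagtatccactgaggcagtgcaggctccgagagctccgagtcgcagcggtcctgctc
Dlk1, chr6:134192347-134192646, plus strand: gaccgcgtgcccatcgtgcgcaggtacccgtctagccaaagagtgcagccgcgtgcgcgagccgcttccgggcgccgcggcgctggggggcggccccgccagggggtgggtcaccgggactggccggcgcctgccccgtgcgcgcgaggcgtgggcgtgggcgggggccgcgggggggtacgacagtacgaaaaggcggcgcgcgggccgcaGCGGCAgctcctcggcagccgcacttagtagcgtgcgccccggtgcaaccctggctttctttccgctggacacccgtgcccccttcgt
Mest, chr4:60321564-60321863, plus strand: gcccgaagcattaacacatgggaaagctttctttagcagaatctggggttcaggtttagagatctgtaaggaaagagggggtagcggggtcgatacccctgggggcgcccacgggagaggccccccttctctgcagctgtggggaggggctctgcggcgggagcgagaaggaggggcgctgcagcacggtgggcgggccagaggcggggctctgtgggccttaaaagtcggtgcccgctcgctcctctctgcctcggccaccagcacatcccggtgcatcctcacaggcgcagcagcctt
The Nap1l5 window held 2 copies of the hexamer, the Dlk1 window 1, and those of Ndn and Mest 0. Of the 9 windows, 6 held at least 1 copy, against 11.7% of all 33469 promoter windows of 300 bases. The windows held 11 to 45 CG dinucleotides, the dinucleotide at which DNA is methylated, where the median of all windows was 7. The Dlk1 window had the most, 45, a number reached by 1.66% of all windows, and Nap1l5 had 17 and Ndn 14. The hexamer itself holds a CG, and the 11.7% is not from windows matched for their number of CG, so these shares are not like for like. A match of letters is a description of the window and is not a binding site or a cause of any difference below.

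The deposited values are differences on a log2 scale around the median of each probe set over the 12 arrays, so they give no absolute level and levels of different genes cannot be set against each other. The base of the logarithm is that of the study's methods. If it were another base the folds would change, but neither the tests nor the order of arrays would. Medians of the arrays lay between -0.00416 and 0.00721, and the SD over probe sets was 0.211 in SPI 1 and between 0.128 and 0.164 in the other 11 arrays. As bone is a mixed tissue, fewer cells of a type and less RNA per cell cannot be told apart. Whether osteoblast or other defining transcripts were present at all could not be read from centred values.

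Nap1l5, a nucleosome assembly protein gene of paternal expression that in the mouse lies within an intron of Herc3, had the widest span of group means, 1.29 log2 units. Its values were 0.81, 0.89 and 0.92 in SPI arrays, 0.26, 0.17 and 0.30 in E2 arrays, -0.23, -0.20 and -0.17 in SPI+E2 arrays and -0.39, -0.38 and -0.49 in CAS arrays. The 4 groups did not overlap with each other at any point, in the order SPI, E2, SPI+E2, CAS. The SPI mean was 1.29 above the CAS mean (2.45-fold, 0.87 ± 0.0586 in SPI and -0.42 ± 0.0597 in CAS, SD, n = 3 each), the 14th largest of the 31042 differences, and this is the value that drew attention to the gene.

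**Figure D1:**
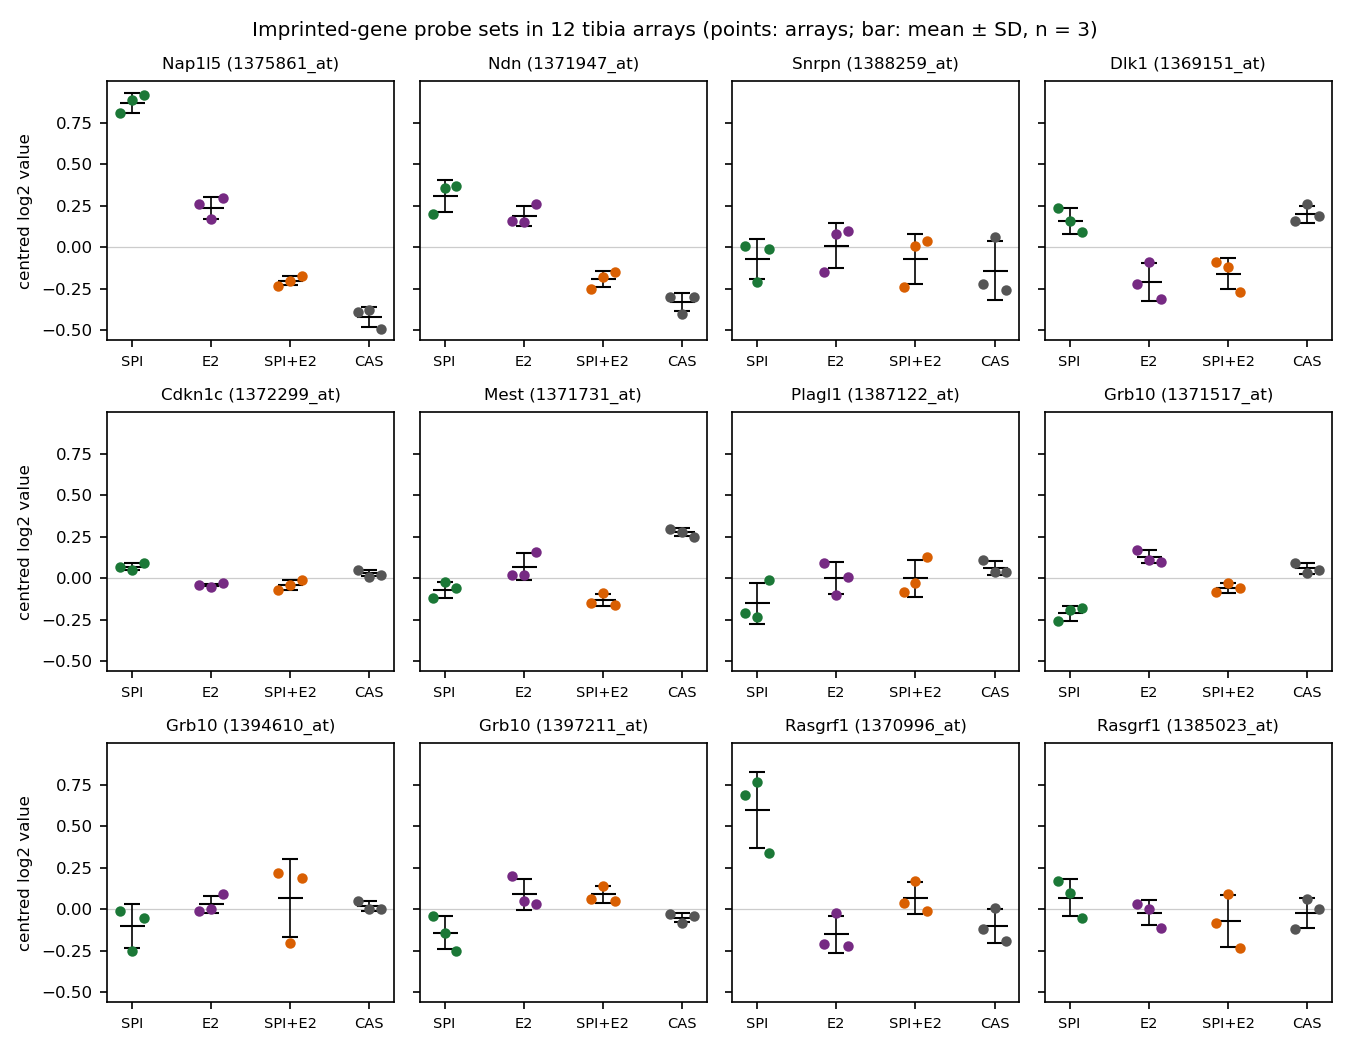
Centred log2 value of each of the 12 probe sets (vertical axis) in SPI, E2, SPI+E2 and CAS arrays, with points for arrays and bars for mean ± SD (n = 3). Nap1l5 lies between 0.81 and 0.92 in SPI arrays and between -0.49 and -0.38 in CAS arrays, whereas Cdkn1c stays between -0.07 and 0.09 in all 12 arrays.

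Under E2, the SPI diet went with less Nap1l5, not more. SPI+E2 against E2 was the one comparison whose means used no SPI or CAS array. In it Nap1l5 fell by 0.44 (SE 0.0542, limma adjusted p = 0.000428, 3 arrays against 3). The spread behind this SE and p was estimated over all arrays, so the SPI and CAS arrays still entered the test. A fit of these groups alone also passed (limma adjusted p = 0.00547). The genes were chosen with earlier results of these data known, so the comparison is not fully independent of the choice. All 3 SPI+E2 arrays were below all 3 E2 arrays. E2 on the casein diet raised Nap1l5 by 0.66 over CAS (1.58-fold, SE 0.0542, adjusted p = 1.05e-05), and SPI+E2 stood 0.22 above CAS (adjusted p = 0.0265). Both of the last comparisons use the CAS arrays that also entered the choice of the gene. The rise with SPI+E2 was small, and its call was lost without CAS 1, CAS 3 or any 1 of the 3 SPI+E2 arrays (adjusted p between 0.0527 and 0.109), with trended and robust variances (0.0893) and in a fit of these groups alone (0.0526). SPI+E2 was 1.07 below SPI, and SPI was 0.63 above E2, values that use the SPI arrays and were not tested.

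Ndn encodes necdin, a growth suppressor of postmitotic neurons that is paternally expressed in the Prader-Willi region. Its values were 0.20, 0.36 and 0.37 in SPI arrays, 0.16, 0.15 and 0.26 in E2 arrays, -0.25, -0.18 and -0.15 in SPI+E2 arrays and -0.30, -0.40 and -0.30 in CAS arrays. The order of groups was that of Nap1l5 by the means, but SPI and E2 arrays overlapped, and their difference of 0.12 was not tested. Ndn fell by 0.38 in SPI+E2 against E2 (SE 0.0606, limma adjusted p = 0.00209, 3 arrays against 3) and rose by 0.52 with E2 over CAS (1.44-fold, adjusted p = 0.000157). SPI+E2 was 0.14 above CAS, which did not pass (adjusted p = 0.196) although the arrays did not overlap. The SPI mean was 0.64 above the CAS mean, not tested. Over the 12 arrays the Pearson r of Nap1l5 and Ndn was 0.94, a description of arrays that share the same 4 groups.

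Markers of neurons moved with both genes. The mean of 17 neuron genes lay between 0.41 and 0.43 in SPI arrays, 0.17 and 0.20 in E2 arrays, -0.24 and -0.16 in SPI+E2 arrays and -0.46 and -0.41 in CAS arrays, the same order of groups as for Nap1l5. Of their 24 probe sets, 0 rose and 17 fell in SPI+E2 against E2, 18 rose and 0 fell with E2 over CAS, and 12 rose and 0 fell with SPI+E2 over CAS (limma adjusted p under 0.05). Of all probe sets, 4.92% rose and 5.53% fell in SPI+E2 against E2, and 4.99% rose and 4.36% fell with E2 over CAS. With SPI+E2 over CAS 4.14% rose and 4.33% fell. The marker lists were chosen with earlier results of these data known. Schwann cell and peripheral myelin genes, 13 probe sets of 9 genes, had 10 lower and 0 higher in SPI+E2 against E2. Sensory neuron genes, 16 probe sets of 10 genes, had 11 lower and 0 higher there. Genes of sympathetic neurons and chromaffin cells went the other way, with 9 of 15 probe sets higher and 0 lower in SPI+E2 against E2. The part of nerve RNA in the Nap1l5 and Ndn differences was not tested.

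**Figure D2:**
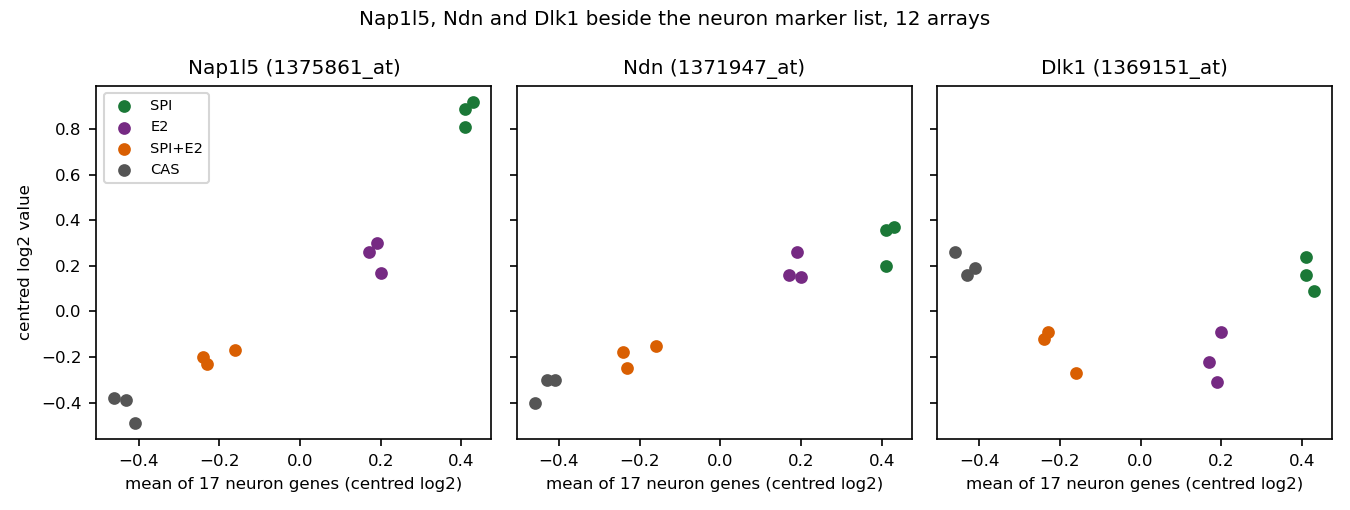
Centred log2 values of Nap1l5, Ndn and Dlk1 (vertical axis) against the mean of 17 neuron genes in the same array (horizontal axis, centred log2), 12 arrays coloured by group. For Nap1l5 and Ndn the groups run from CAS at the lower left to SPI at the upper right, while Dlk1 is low in E2 and SPI+E2 arrays, at -0.31 to -0.09, and high in SPI and CAS arrays.

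The genes whose probe sets were most like Nap1l5 over the 12 arrays, by Pearson r, were Zwint (0.993), Ttyh1 (0.992), Klc1 (0.991), Kcnab2 (0.991) and Snap25 (0.988). Zwint encodes a protein of the kinetochore, Snap25 a protein of synaptic vesicle release, Klc1 a light chain of the kinesin motor and Kcnab2 a subunit of potassium channels. The mean of 10 cell division genes was highest in CAS arrays, between 0.26 and 0.31, where Nap1l5 was lowest. For Ndn the genes most alike were Scg3 (0.989), Elavl4 (0.984) and Uchl1 (0.984). Elavl4 is an RNA-binding protein of neurons, Uchl1 an abundant neuronal hydrolase and Scg3 a protein of secretory granules. Elavl4, Uchl1 and Snap25 belong to the neuron list above. Averaged over the probe sets of each gene, Snrpn, Dlk1, Cdkn1c, Mest, Plagl1, Grb10 and Rasgrf1 spanned 0.12 to 0.42 log2 units between group means, under the 0.5 from which such genes were sought. For Rasgrf1 this mean (0.42) joins 2 probe sets that differ.

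Snrpn encodes SmN, a spliceosomal protein of neurons, and lies with Ndn in the Prader-Willi region. Its single probe set, 1388259_at, lay between -0.21 and 0.01 in SPI arrays, -0.15 and 0.10 in E2 arrays, -0.24 and 0.04 in SPI+E2 arrays and -0.26 and 0.06 in CAS arrays. These groups overlapped throughout and no test passed (adjusted p between 0.508 and 0.72). A further 2 probe sets are annotated to Snurf and Snrpn jointly and so fall outside the rule and are assigned to neither gene. Of these, 1368098_a_at had group means of 0.25 with SPI, 0.10 with E2, -0.09 with SPI+E2 and -0.26 with CAS, and 1369085_s_at had 0.31, 0.26, -0.24 and -0.29 in that order of groups. By the means both had the order of groups seen for Nap1l5 and Ndn, so the result for this locus depends on which probe set is read. For 1369085_s_at, however, SPI and E2 arrays overlapped, as did SPI+E2 and CAS arrays.

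Dlk1 is paternally expressed and encodes a membrane protein that holds back adipocyte differentiation. Its values were 0.24, 0.16 and 0.09 in SPI arrays, -0.22, -0.09 and -0.31 in E2 arrays, -0.09, -0.12 and -0.27 in SPI+E2 arrays and 0.16, 0.26 and 0.19 in CAS arrays. The arrays of E2-treated rats were all below those of untreated rats, on either diet. Dlk1 fell by 0.41 with E2 (SE 0.0709, limma adjusted p = 0.00274, 3 arrays against 3) and by 0.36 with SPI+E2 (adjusted p = 0.00919), both against CAS. The diet made less difference, with SPI+E2 at 0.05 above E2 (adjusted p = 0.718) and SPI at -0.04 from CAS (not tested), and in both pairs the arrays overlapped. SPI+E2 lay 0.32 below SPI, again without overlap. Cell division genes were also low with E2, their 10-gene mean lying between -0.29 and -0.19 in E2 arrays, -0.07 and -0.01 in SPI+E2 arrays, and 0.26 and 0.31 in CAS arrays. Unlike Dlk1, that mean was also lower in SPI arrays (-0.08 to 0.10) than in CAS arrays. Its part in the Dlk1 difference was not tested.

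Mest, paternally expressed and tied in the mouse to the growth of fat tissue, was highest with CAS. Its values were -0.12, -0.02 and -0.06 in SPI arrays, 0.02, 0.02 and 0.16 in E2 arrays, -0.15, -0.09 and -0.16 in SPI+E2 arrays and 0.30, 0.28 and 0.25 in CAS arrays. All 9 arrays of the treated groups were below all 3 CAS arrays. Mest fell by 0.41 with SPI+E2 over CAS (1.33-fold, SE 0.0527, limma adjusted p = 0.000739, 3 arrays against 3), by 0.21 with E2 over CAS (adjusted p = 0.0256) and by 0.20 in SPI+E2 against E2 (adjusted p = 0.0334). The SPI mean was -0.35 from CAS, not tested. The call for E2 was lost without CAS 1, CAS 2, CAS 3, E2 1 or E2 2 (adjusted p between 0.0579 and 0.107) and in a fit of these groups alone (0.0509). The call for SPI+E2 against E2 was lost without E2 1, E2 3 or any SPI+E2 array (adjusted p between 0.0524 and 0.129), with the pool number as a block (0.0504), with trended and robust variances (0.0575) and in a fit of these groups alone (0.0861). Of all probe sets, 4.36% were called lower in E2 against CAS, 4.33% in SPI+E2 against CAS and 5.53% in SPI+E2 against E2. Chondrocyte genes were lower where Mest was lower, with 6, 8 and 4 of 13 probe sets lower in that order, and 0 higher in each. Their 8-gene mean lay between -0.40 and -0.34 in SPI arrays, 0.04 and 0.08 in E2 arrays, -0.07 and -0.03 in SPI+E2 arrays and 0.37 and 0.41 in CAS arrays, lowest in SPI arrays where Mest was lowest in SPI+E2 arrays by the means. The mean of 9 adipocyte genes lay between -0.19 and -0.07 in SPI arrays, -0.13 and -0.08 in E2 arrays, 0.04 and 0.12 in SPI+E2 arrays and 0.18 and 0.20 in CAS arrays. It too was highest with CAS, but it was higher in SPI+E2 than in E2 arrays, where Mest was lower. The part of chondrocyte and adipocyte RNA in the Mest differences was not tested.

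Among the genes that restrain growth, Cdkn1c, a cyclin-dependent kinase inhibitor expressed in the growth plate, moved least. It lay between 0.05 and 0.09 in SPI arrays, -0.05 and -0.03 in E2 arrays, -0.07 and -0.01 in SPI+E2 arrays and 0.01 and 0.05 in CAS arrays, and no test passed (adjusted p between 0.361 and 0.976). Plagl1, a zinc finger transcription factor gene, overlapped between groups in every tested comparison (adjusted p between 0.688 and 0.985), and its values ran from -0.23 to -0.01 in SPI arrays against 0.04 to 0.11 in CAS arrays.

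Grb10, which encodes an adaptor that dampens insulin and IGF receptor signals, had 3 probe sets that did not act alike in SPI+E2 against E2. The probe set 1371517_at read -0.26, -0.19 and -0.18 in SPI arrays, 0.17, 0.11 and 0.10 in E2 arrays, -0.08, -0.03 and -0.06 in SPI+E2 arrays and 0.09, 0.03 and 0.05 in CAS arrays. It was thus lower in SPI-fed rats with or without E2, and it fell by 0.18 in SPI+E2 against E2 (SE 0.0464, limma adjusted p = 0.0288, 3 arrays against 3). That call was lost without any 1 of the 6 arrays compared (adjusted p between 0.0525 and 0.112) and in a fit of these groups alone (0.0717), and averaging the 3 probe sets gave -0.05 (adjusted p = 0.488). The probe set 1394610_at differed by 0.04 there (adjusted p = 0.833), with SPI+E2 arrays spread from -0.20 to 0.22, and 1397211_at had equal means of 0.09 in both groups (adjusted p = 0.977). In SPI against CAS, not tested, all 3 were lower by the means. The differences were -0.27 for 1371517_at, -0.12 for 1394610_at and -0.09 for 1397211_at, and the arrays overlapped only for 1397211_at.

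Rasgrf1, a paternally expressed exchange factor for Ras in the brain, was high with SPI alone in 1 of its 2 probe sets. The probe set 1370996_at read 0.69, 0.77 and 0.34 in SPI arrays, -0.21, -0.02 and -0.22 in E2 arrays, 0.04, 0.17 and -0.01 in SPI+E2 arrays and -0.12, 0.01 and -0.19 in CAS arrays. The SPI arrays lay above all others, 0.70 above CAS and 0.75 above E2 by the means, neither of them tested. The order of groups was not that of Nap1l5, since SPI+E2 arrays were above E2 arrays (0.22, SE 0.106, adjusted p = 0.226). E2 differed from CAS by -0.05 (adjusted p = 0.874). The other probe set, 1385023_at, overlapped between all groups, from -0.05 to 0.17 in SPI arrays and from -0.12 to 0.06 in CAS arrays.

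Counted over the 12 probe sets, 2 rose and 2 fell with E2 over CAS, where 4.99% of all probe sets rose and 4.36% fell. With SPI+E2 over CAS 1 rose and 2 fell, against 4.14% and 4.33% of all. In SPI+E2 against E2 0 rose and 4 fell, against 4.92% and 5.53%, and the number that fell was 2 without E2 1, E2 3 or any 1 of the SPI+E2 arrays. Those 2 were Nap1l5 and Ndn. The median difference over the 12 was 0.01, 0.00 and -0.03 in these comparisons, beside -0.01, 0.02 and 0.03 over all probe sets, with members on either side of 0 in each. For SPI against CAS, which entered the choice, the arrays did not overlap for 4 that were higher (16.2% of all probe sets) and 4 that were lower (17.7% of all).

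**Figure D3:**
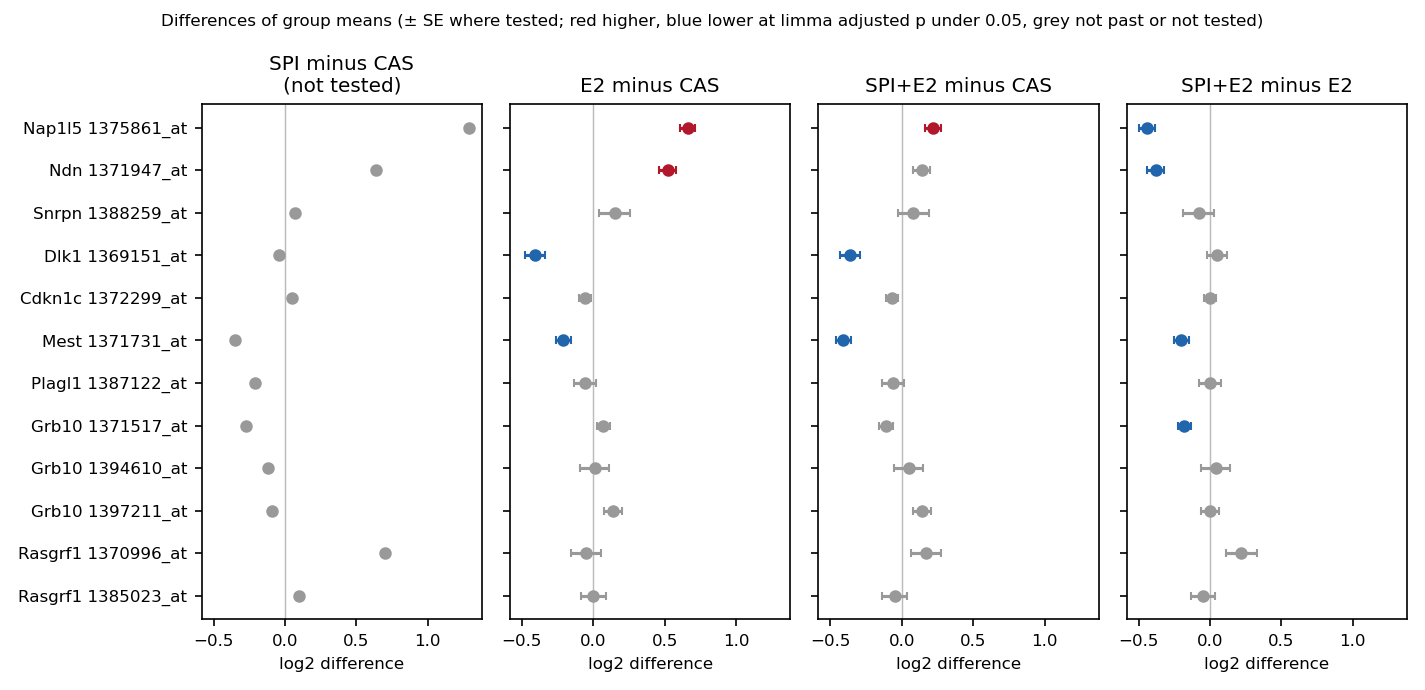
Difference of group means (horizontal axis, log2) of the 12 probe sets in 4 comparisons, with SE where tested, red for higher and blue for lower at an adjusted p under 0.05. In SPI+E2 minus E2 the 4 blue points are Nap1l5 (-0.44), Ndn (-0.38), Mest (-0.20) and 1 of 3 Grb10 probe sets (-0.18), and none is red.

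A list of 40 other genes imprinted in the mouse had 60 probe sets of 34 genes here. In E2 against CAS 3 rose, 1 fell and 56 did not pass (median 0.02), where 4.99% of all probe sets rose and 4.36% fell. The maternally expressed noncoding RNA Meg3, which shares its imprinted cluster with Dlk1, rose in both of its probe sets, by 0.73 in 1377008_at (SE 0.0508, limma adjusted p = 3.40e-06, 3 arrays against 3) and 0.45 in 1388357_at, while Dlk1 fell. Igf2, the fetal insulin-like growth factor, rose by 0.36 in 1 of 4 probe sets (adjusted p = 0.00037), and 1 of 3 Gnas probe sets, of the stimulatory G protein locus, fell by 0.34 (adjusted p = 0.0462).

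In SPI+E2 against CAS 5 of the 60 rose, 3 fell and 52 did not pass (median 0.06), against 4.14% and 4.33% of all probe sets. The largest were Ddc, an enzyme of catecholamine synthesis, at 0.95 (adjusted p = 0.000108), the creatine synthesis gene Gatm at -0.49 (adjusted p = 0.0167), Peg12 at -0.39 (adjusted p = 0.0201) and Meg3 at 0.32 (1388357_at, adjusted p = 0.00154). The values for Ddc and Gatm are each from 1 of 2 probe sets, 1368064_a_at and 1367627_at. The others did not pass, with Ddc 1375317_at at 0.33 (adjusted p = 0.118) and Gatm 1377784_at at 0.07 (adjusted p = 0.731), opposite in sign to the first. In SPI+E2 against E2 2 rose, 4 fell and 54 did not pass (median 0.01), against 4.92% and 5.53% of all probe sets. Ddc 1368064_a_at stood 1.20 higher (adjusted p = 1.44e-05), while 1375317_at stood at 0.21 (adjusted p = 0.309). Gatm 1367627_at was lower, at -0.48 (adjusted p = 0.0161), and 1377784_at was at -0.02 (adjusted p = 0.931). Meg3 was lower in 1377008_at, at -0.44 (adjusted p = 0.000288), and stood at -0.14 in the other probe set (adjusted p = 0.0771), and the matrix proteoglycan gene Dcn was at -0.34 (adjusted p = 0.000441). Ddc is also on the list of sympathetic neurons and chromaffin cells, of which 9 of 15 probe sets rose in the same comparison. Meg3 1377008_at, with means of 0.17 for SPI, 0.25 for E2, -0.19 for SPI+E2 and -0.48 for CAS, had the group order of Nap1l5 except that E2 stood above SPI. The other Meg3 probe set, 1388357_at, had means of -0.01 for SPI, 0.16 for E2, 0.02 for SPI+E2 and -0.29 for CAS. There SPI and SPI+E2 arrays overlapped, so the likeness holds for 1 of 2 probe sets.

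**Figure D4:**
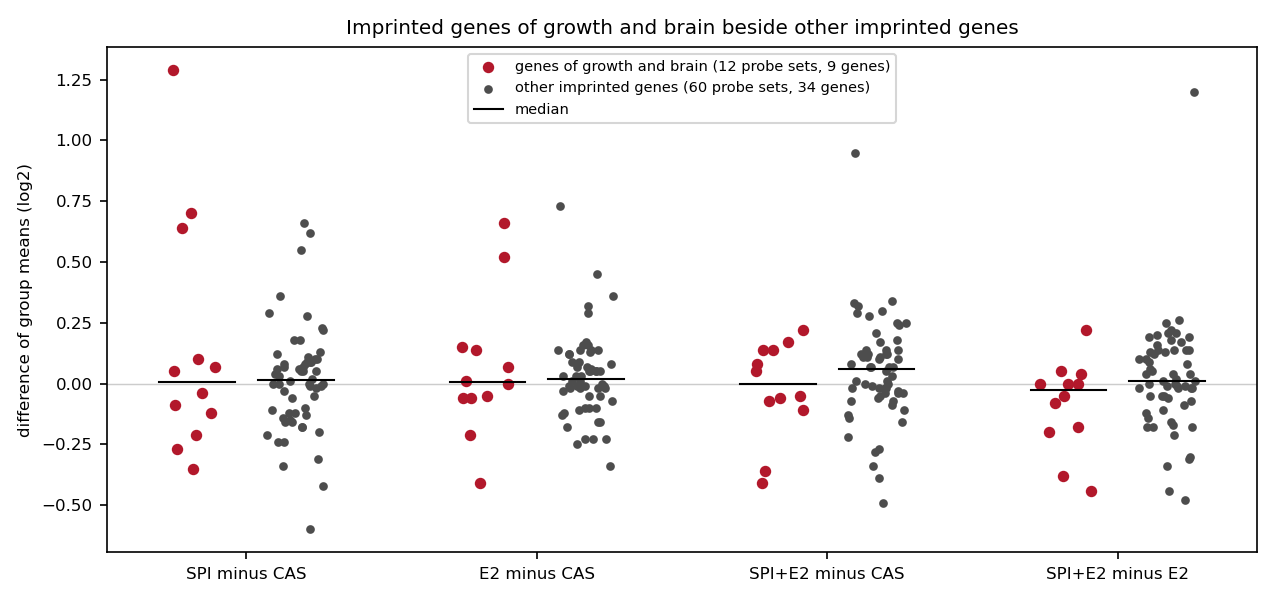
Difference of group means (vertical axis, log2) for the 12 probe sets described (red) and 60 probe sets of other imprinted genes (grey) in 4 comparisons, with black lines at the medians. The medians lie between -0.03 and 0.06, and the highest red point is Nap1l5 in SPI minus CAS at 1.29.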

How the data were processed

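RNA from the tibia of female rats was measured on 12 Affymetrix GeneChip rat arrays, 3 for each of 4 groups taken from the sample labels, each from a pool of 2 to 3 rats. GCOS and RMA are named in the submitters' processing notes. The deposited log2 values had further been scaled by the authors with GeneSpring, first by chip and then by gene, which set the median of every probe set near 0. Genome build is not given in the sources used here. After 57 control probe sets were left out of 31099, 31042 were fitted. A single symbol was given for 20826, several for 436, and 9780 were unnamed here. Columns of sample values left out numbered 0.

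Group means of all 12 arrays were estimated in limma 3.58.1 (R 4.3.3), and a Benjamini-Hochberg adjusted p under 0.05, taken over the whole array, was called. The steps were tested on simulated data. The results were recomputed without each array, within the 2 groups compared, with pool number as a block, after quantile normalization or median centring, with weighted arrays, with trended and robust variances, and on gene means. Every member was named. Of the other imprinted genes, up to 4 called probe sets with the largest change were named per comparison, and likeness was ranked by Pearson r (5 genes for Nap1l5, 3 for others spanning 0.5). Members and lists (neurons, sensory neurons, sympathetic neurons and chromaffin cells, Schwann cells, osteoblasts, chondrocytes, skeletal muscle, adipocytes, erythroid cells, cell division) were chosen with earlier results of these data known. Probe intensities were not used, and precision is limited by 3 pools per group. Promoters came from RefSeq (GRCr8) by symbol and gene number.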

Additional observations from a re-analysis of the deposited data

Results flagged for a closer look

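The effect of the SPI diet ran in opposite directions with and without E2 for Nap1l5 and Ndn. Nap1l5 differed by -0.44 in SPI+E2 against E2 and by 1.29 in SPI against CAS, and Ndn by -0.38 and 0.64. Every SPI+E2 array lay below every E2 array, and every SPI array above every CAS array. Seen from the other treatment, E2 on the SPI diet (SPI+E2 against SPI) went with a difference of -1.07 for Nap1l5 and -0.50 for Ndn, where E2 on casein (E2 against CAS) went with 0.66 and 0.52. The differences between these effects were not tested, because the SPI and CAS arrays entered the choice of the genes. Such a reversal was not particular to these genes, and its share over all probe sets was not counted. Meg3 1377008_at differed by 0.66 in SPI against CAS and by -0.44 in SPI+E2 against E2. The joint Snurf and Snrpn probe sets differed by 0.51 and -0.19 (1368098_a_at) and by 0.60 and -0.50 (1369085_s_at). Of 24 neuron probe sets, 21 were higher in all SPI than in all CAS arrays, and 0 lower. Of all probe sets 16.2% were higher and 17.7% lower in that way. In SPI+E2 against E2, 18 of the neuron probe sets were lower in all arrays and 0 higher. The share of all probe sets without overlap was not counted for that comparison. Groups of 3 arrays were not searched for single outlying arrays.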

How the results depend on the processing

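Leaving out each array in turn gave 3 to 4 calls for E2 against CAS, 2 to 3 for SPI+E2 against CAS and 2 to 4 for SPI+E2 against E2, where all arrays gave 4, 3 and 4. A fit of the 2 groups alone gave 2 calls for SPI+E2 against E2. With the pool number as a replicate block the calls were 4, 3 and 3. The block changed no other call. Of 18 pairs of arrays with the same pool number, 4 had a correlation of deviations above 0.1 (range -0.0741 to 0.244, median 0.0439). Of 36 pairs with other numbers, 3 did (range -0.23 to 0.202, median -0.0149). Whether pool numbers pair the arrays was not tested. Nap1l5 and Ndn passed in all 19 alternatives for E2 against CAS and for SPI+E2 against E2, as did Dlk1 for E2 and SPI+E2 against CAS. Over single probe sets and alternatives, 655 results kept their side of the threshold, 29 lost it and 0 gained it or reversed while called. Many of the 655 were never called, so the 29 are not a share of calls. They came from Mest for E2 against CAS (13 of 19 alternatives passed) and Nap1l5 for SPI+E2 against CAS (12). The rest were Mest and Grb10 1371517_at for SPI+E2 against E2 (11 each). The Nap1l5 difference of SPI from CAS was 1.06 after quantile normalization, against 1.29, and the cause was not tested.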

Other observations

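Marker lists of bone and blood not described above moved as follows in SPI+E2 against E2, where 4.92% of all probe sets rose and 5.53% fell. Osteoblast genes had 0 of 11 probe sets higher and 1 lower, skeletal muscle genes 1 of 16 higher and 1 lower, and erythroid genes 6 of 8 higher and 0 lower. Cell division genes had 4 of 12 higher and 0 lower there, and adipocyte genes 5 of 10 higher and 0 lower. These counts are of calls. Without regard to calls, 10 of the 11 osteoblast probe sets were lower in all SPI+E2 than in all E2 arrays, and 1 was higher. Their median difference was -0.08, beside 0.03 over all probe sets. The share of all probe sets without overlap was not counted there.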
